A study of Sus scrofa with 15 samples.

Results

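The aminoacyl-tRNA synthetase genes of the pig oocyte were examined as a list of 38 symbols: 7 cytosolic synthetases of the multisynthetase complex, 12 other cytosolic synthetases, 3 scaffold proteins of that complex and 16 mitochondrial synthetases. Members were the rows of the gene table whose pig Ensembl gene ID carries a listed symbol, the older symbol without the final 1 included. Of the 38, 37 were found among the 17841 genes whose transcripts could be placed, and 36 were among the 13223 genes with enough counts to be tested. FARSB, the second subunit of the cytosolic phenylalanine enzyme, had no gene ID in the name table and was not analysed here. AARS2, the mitochondrial alanine enzyme, was found but fell under the filter on low counts.

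The series follows pig oocytes through meiotic maturation in 15 poly(A) RNA libraries, each made from a pool of 15 oocytes out of abattoir ovaries. GV oocytes (5 libraries, germinal vesicle stage) were stripped of cumulus cells directly after collection and were not cultured. The others were matured in vitro inside their cumulus complexes for 44 h and then sorted by eye: MII oocytes (5 libraries) showed a first polar body and 'damaged' oocytes (5 libraries) did not. Following the study, MIX stands for the 10 matured libraries of both kinds when they are set against GV. The labels name no treatment or genotype and define 'damaged' by the missing polar body alone.

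An aminoacyl-tRNA synthetase joins an amino acid to its tRNA, the step that sets which amino acid each codon is read as. The cytosol and the mitochondrion mostly use separate enzymes, both encoded in the nucleus; the mitochondrial set is imported and charges the tRNAs that read mitochondrial messages. In the cytosol, several of the enzymes sit with 3 scaffold proteins in 1 large complex, the multisynthetase complex, while others act as free enzymes. A growing oocyte stores message and protein for the divisions that follow, and transcription is largely silent during maturation.

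The counts estimated per library summed to between 11.96 and 23.6 M, except for GV library 3 with 6.40 M. The study left out a GV library for its few reads without naming it. GV library 3 has the lowest total and was taken to be that one, and its values are given apart below. All of the 12 oocyte markers with counts, of 13 listed (zona pellucida genes, GDF9, BMP15 and others), had a mean TPM over 1 in each group. Their summed level was 16480 to 21050 TPM in GV, 4210 to 6554 in MII and 4692 to 5962 in 'damaged', without overlap between GV and the matured libraries. Its part in the results was not tested. None of the 8 cumulus and granulosa markers with counts, of 13 listed, did, and their summed level was 0.433 to 4.12 TPM in the GV, MII and 'damaged' libraries. Of 6 theca and stroma markers 3 had counts, with DCN the highest, and summed to 2.38 to 14.8 TPM. The 3 immune markers summed to 2.9 to 7.6 TPM in GV, 0.810 to 1.33 TPM in MIX and 22.03 TPM in GV library 3. CD14 was the highest of them in GV, MII and 'damaged', with a mean of 4.99 TPM in GV. In GV library 3 the highest marker held 21.92 TPM. CD68 reached the cutoff of the filter on low counts in 0 of the libraries used, and PTPRC in 0 GV and 3 matured libraries. The part of these markers in the results was not tested. The libraries are pools of whole cells, so fewer cells of a type and less RNA per cell cannot be told apart.

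Levels of 1 gene are given as normalized CPM, counts scaled to library depth and TMM factors, and levels of different genes are compared as TPM, which corrects for transcript length. A gene changed when the FDR was under 0.01 (limma-voom, Benjamini-Hochberg over all genes tested), and it was a DEG when the log2 fold change also exceeded 2 in size. The methods of the study describe biologically independent collections in which oocytes of each stage or group were taken. The fit did not pair libraries by collection. The labels do not tie a library to a collection or to animals, and the p-values measure the spread between these libraries. The scaling matters here: over all genes the median log2 fold change, MIX versus GV, was -0.16 with TMM factors and -1.06 on library sizes alone. Log2 fold changes below are with TMM factors, and the members whose direction or call differs on library sizes are named.

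Between GV and MIX, 28 of the 36 tested members changed, beside 67.5% of all genes tested. Of the 36, 10 rose (27.8%, beside 30.3%) and 18 fell (50%, beside 37.2%). Of these, 3 were DEGs that rose (8.33%, beside 4.27%) and 8 were DEGs that fell (22.2%, beside 16.7%). The other 8 did not pass the test. The median log2 fold change of the members was -0.42, lower than that of all genes. On library sizes, 5 members rose (beside 12.1% of all genes) and 24 fell (66.7%, beside 60.5%). DEGs there were 0 members that rose (beside 0.348%) and 14 that fell (38.9%, beside 28.6%). Members WARS1, NARS1, AIMP1, EEF1E1, EARS2 and NARS2 fell there and did not pass with TMM factors. The normalized CPM of the 10 matured libraries lay above that of the 4 GV libraries without overlap for 9 members (background 24.3%) and below for 14 (background 29.4%). The filter on low counts asked for 4 libraries at or over 0.628 CPM. VARS1, VARS2, SARS2 and CARS1 had fewer than 4 such matured libraries and passed it only with the GV libraries, so they had to be lower in MIX. These 4 are among the 18 falls and among the 14 members below GV without overlap. They are also among the 24 falls and the 14 DEGs that fell on library sizes. VARS1, VARS2 and SARS2 are among the 8 DEGs that fell with TMM factors. The values of these 4 genes are given below as a description, with no test.

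Counted by compartment, of 18 cytosolic synthetases tested, 5 rose (27.8%, beside 30.3% of all genes tested) and 11 fell (61.1%, beside 37.2%). Their median log2 fold change was -0.85. GARS1 and KARS1, which serve both compartments, are counted here as cytosolic. Of 15 mitochondrial synthetases tested, 5 rose (33.3%) and 6 fell (40%), with a median of -0.01. Within the cytosolic set, the 7 enzymes of the multisynthetase complex had a median of 0.71, with 4 rises (57.1%) and 3 falls (42.9%). The 11 free enzymes had a median of -1.46, with 1 rise (9.09%) and 8 falls (72.7%). Scaled by library size alone, 3 cytosolic synthetases rose (16.7%, beside 12.1% of all genes) and 13 fell (72.2%, beside 60.5%). Their median was then -1.75, beside -1.06 for all genes. Mitochondrial synthetases had 2 rises (13.3%), 8 falls (53.3%) and a median of -0.91 there. The complex stood at -0.19 on that scale, with 2 rises (28.6%) and 3 falls (42.9%). Free enzymes stood at -2.35, with 1 rise (9.09%) and 10 falls (90.9%). The falls counted here include VARS1 and CARS1 among the free enzymes and VARS2 and SARS2 among the mitochondrial ones. The filter fixed the direction of these genes. The difference between these classes was not tested.

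**Figure D1:**
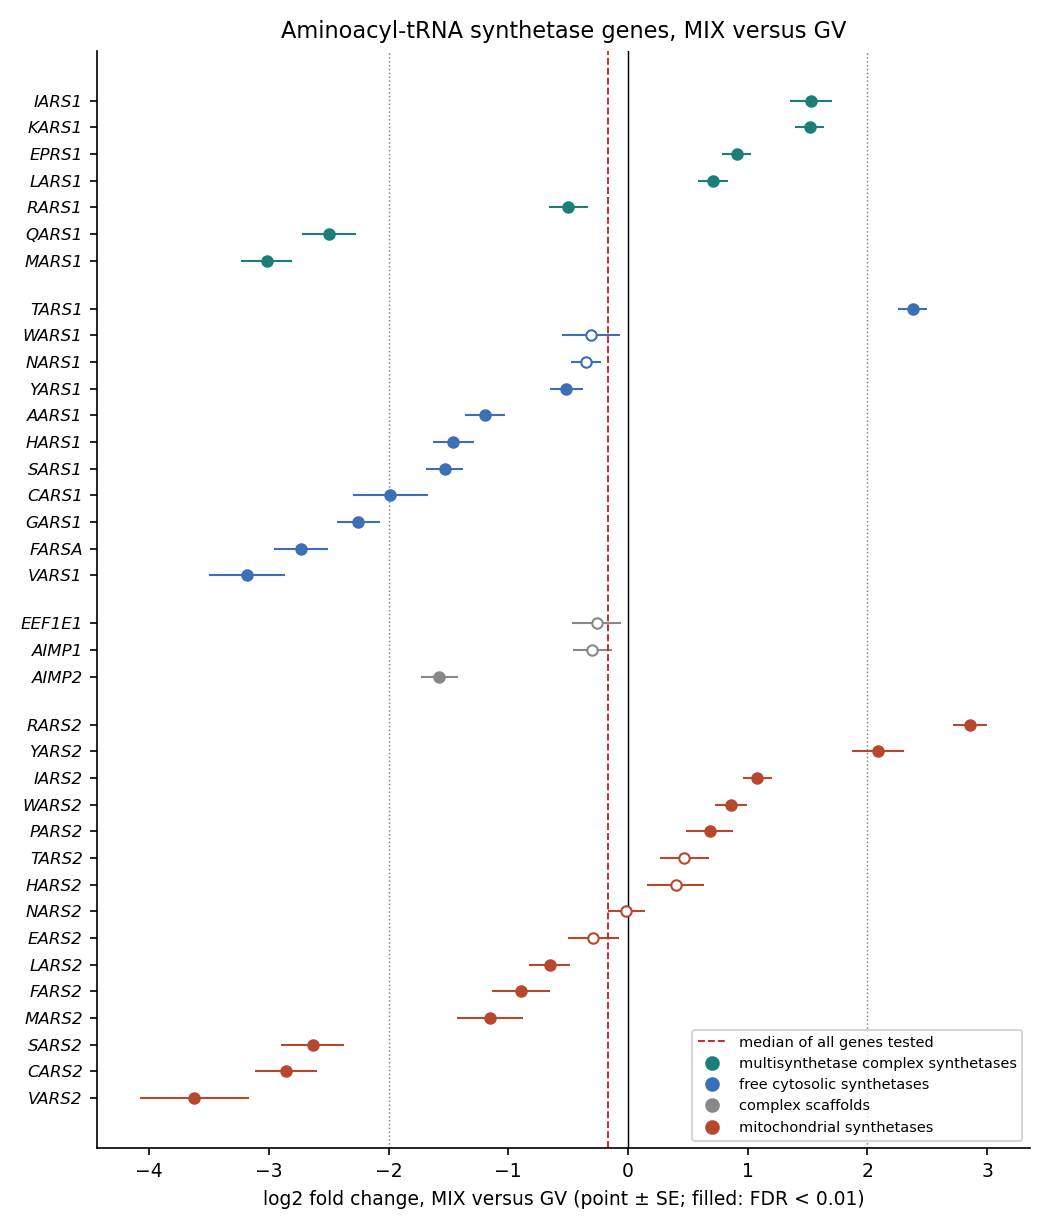
Log2 fold change of the 36 tested members between MIX and GV, as points with standard errors grouped by class; filled points have an FDR under 0.01, dotted lines mark 2 in either direction and the dashed line marks the median of all genes tested, -0.16. The 4 rising enzymes of the multisynthetase complex lie between 0.71 and 1.53, and of the free cytosolic enzymes only TARS1, at 2.38, rose.

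RARS2, the mitochondrial arginine enzyme, had the largest rise of any member and the highest mean TPM of all of them in both stages. Its gene spans chromosome 1 from 55906508 to 55982094 (Sscrofa11.1, RefSeq). In GV libraries 1, 2, 4 and 5 it stood at 318, 198, 208 and 168 normalized CPM, and GV library 3 held 125. The MII libraries held 1599, 1732, 1514, 1864 and 1508, and the 'damaged' libraries 1482, 1734, 1800, 1424 and 1163. Every matured library lay above every GV library. With this, the log2 fold change came to 2.86 ± 0.14 (SE), or 7.25-fold, with an FDR of 4.67e-13 (limma). On library sizes it was 1.96, still a rise, though under the DEG threshold.

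In TPM, RARS2 rose from 285 ± 37.0 (SD, n = 4) in GV to 1015 ± 105 (SD, n = 10) in MIX. Its share of the summed TPM of the mitochondrial synthetases was 56.8 to 75.6% in the 4 GV libraries, 90.9 to 92.4% in MII and 88.8 to 92.3% in 'damaged'. The ranges of GV and MIX did not overlap. Without RARS2, the summed TPM of the other mitochondrial synthetases was 110 to 200 in GV and 87.1 to 111 in MIX. Per TPM of cytosolic synthetase, the mitochondrial set stood at 0.416 to 0.462 in GV and 0.983 to 1.44 in MIX, whereas without RARS2 the ranges were 0.107 to 0.200 and 0.0952 to 0.118. Thus the mitochondrial sum exceeded the GV range with RARS2 counted, and without it the MIX libraries lay at the low end of the GV range or below.

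**Figure D2:**
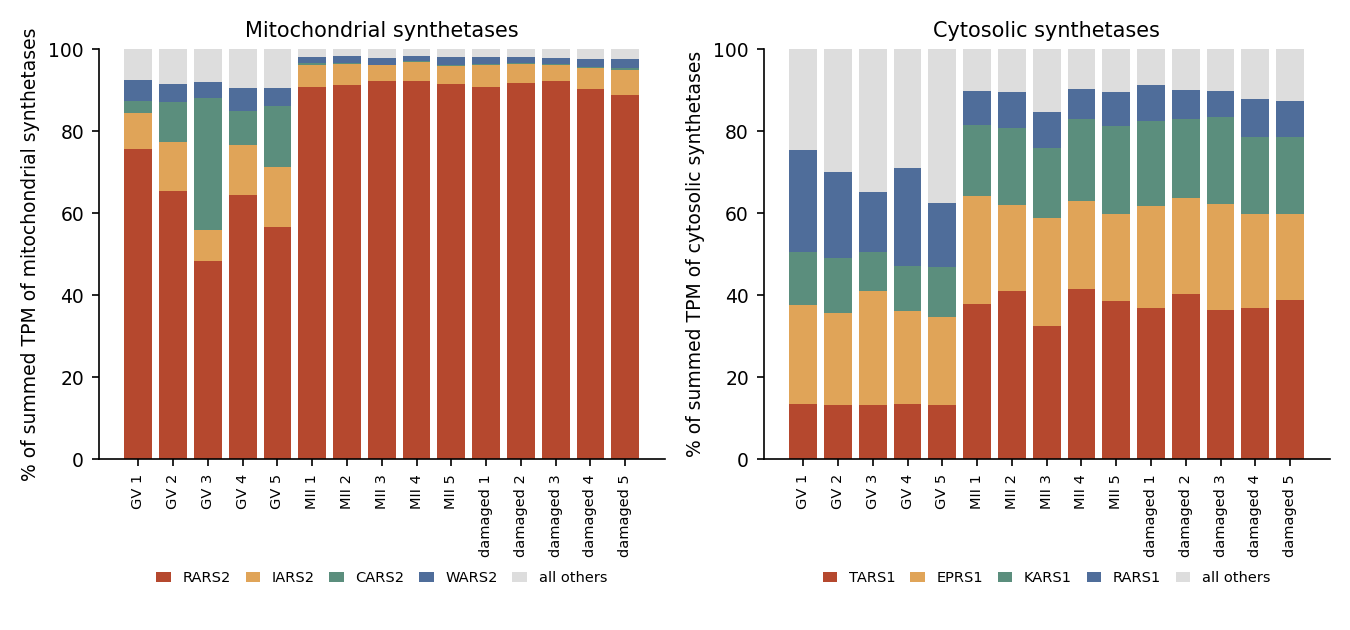
Share of each named gene in the summed TPM of the mitochondrial synthetases (left) and of the cytosolic synthetases (right) in each of the 15 libraries, as stacked bars that add to 100%. RARS2 makes up 88.8 to 92.4% of the mitochondrial sum in the matured libraries, and TARS1 makes up 13.2 to 13.6% of the cytosolic sum in GV libraries 1, 2, 4 and 5 and 32.6 to 41.6% in MIX.

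YARS2, the mitochondrial tyrosine enzyme on chromosome 5 from 41561563 to 41584534, was the other mitochondrial DEG that rose. Its level in GV libraries 1, 2, 4 and 5 was 6.67, 5.93, 4.26 and 5.93 normalized CPM. MII libraries held 30.1, 21.3, 29.4, 26.7 and 14.6, and 'damaged' libraries 22.1, 27.4, 30.9, 28.0 and 16.6. Library 5 was the lowest of each matured group, and it still lay above all GV libraries. This gave a log2 fold change of 2.09 ± 0.22 (SE) with an FDR of 2.34e-08 (limma), and 1.20 on library sizes. Without GV library 4 it was 1.96, and with a filter of 10 CPM 1.77, both still rises but under the DEG threshold. Smaller rises were seen for IARS2 for isoleucine (log2 fold change 1.08), WARS2 for tryptophan (0.86) and PARS2 for proline (0.68). On library sizes IARS2 stood at 0.19, WARS2 at -0.04 and PARS2 at -0.22, and none of these passed the test there, though all passed with the size factors of DESeq2. PARS2 also did not pass without GV library 5 (0.52, FDR 0.0283).

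CARS2, the mitochondrial cysteine enzyme on chromosome 11 from 77231865 to 77269936, was a DEG that fell. GV libraries 1, 2, 4 and 5 held 13.3, 32.2, 29.7 and 48.2 normalized CPM and GV library 3 held 90.8. MII libraries held 5.41, 3.94, 2.67, 3.06 and 2.79, and 'damaged' libraries 4.88, 4.06, 3.49, 4.62 and 5.19. The GV libraries spread widely but did not overlap with MIX. In the fit the log2 fold change was -2.86 ± 0.26 (SE) with an FDR of 3.23e-09 (limma). GV library 3, highest for CARS2, was also the library with the highest immune marker sum. That sum came almost wholly from the highest marker (21.92 of 22.03 TPM). GV library 3 was not in the fit, and a link between CARS2 and this marker was not tested.

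SARS2, the mitochondrial serine enzyme on chromosome 6 from 47717363 to 47728394, was low in all matured libraries. In GV libraries 1, 2, 4 and 5 it stood at 2.80, 3.56, 3.03 and 5.28 normalized CPM. MII libraries held 0.291, 0.623, 0.474, 0.598 and 0.955 and 'damaged' libraries 0.702, 0.312, 0.560, 0.722 and 0.412. All 10 matured libraries were below 1 CPM and below every GV library. The fitted log2 fold change was -2.63 ± 0.26 (SE), in a gene that needed the GV libraries to pass the filter.

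VARS2, the mitochondrial valine enzyme on chromosome 7 from 23404400 to 23416442, had the lowest level of the members tested. Its level in GV libraries 1, 2, 4 and 5 was 0.740, 0.754, 0.647 and 1.26 normalized CPM, from 13 to 29 estimated counts. Of the 10 matured libraries 6 had a count of 0 and the other 4 held 0.0790 and 0.127 (MII) and 0.187 and 0.206 ('damaged'), from at most 3 counts. The fitted log2 fold change, -3.62 ± 0.46 (SE), depends on how counts near 0 are weighted and is no bound. AARS2, not tested, held 0.687, 0.215, 0.597 and 0.479 normalized CPM in the 4 GV libraries, and 0 in 7 of the 10 matured libraries with at most 0.311 in the rest. A count of 0 in these libraries shows that the message was not detectable at this depth.

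Smaller falls with FDR under 0.01 were seen for MARS2 (methionine, log2 fold change -1.15), FARS2 (phenylalanine, -0.89) and LARS2 (leucine, -0.66). These 3 calls are lost when GV library 3 is included, with FDR values of 0.0201, 0.0113 and 0.0299, and FARS2 is also lost without GV library 1 (0.0138) or GV library 4 (0.0101). EARS2 (glutamate, -0.29), HARS2 (histidine, 0.40), NARS2 (asparagine, -0.01) and TARS2 (threonine, 0.47) did not pass the test with TMM factors. On library sizes HARS2 and TARS2 turned to -0.52 and -0.43.

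**Figure D3:**
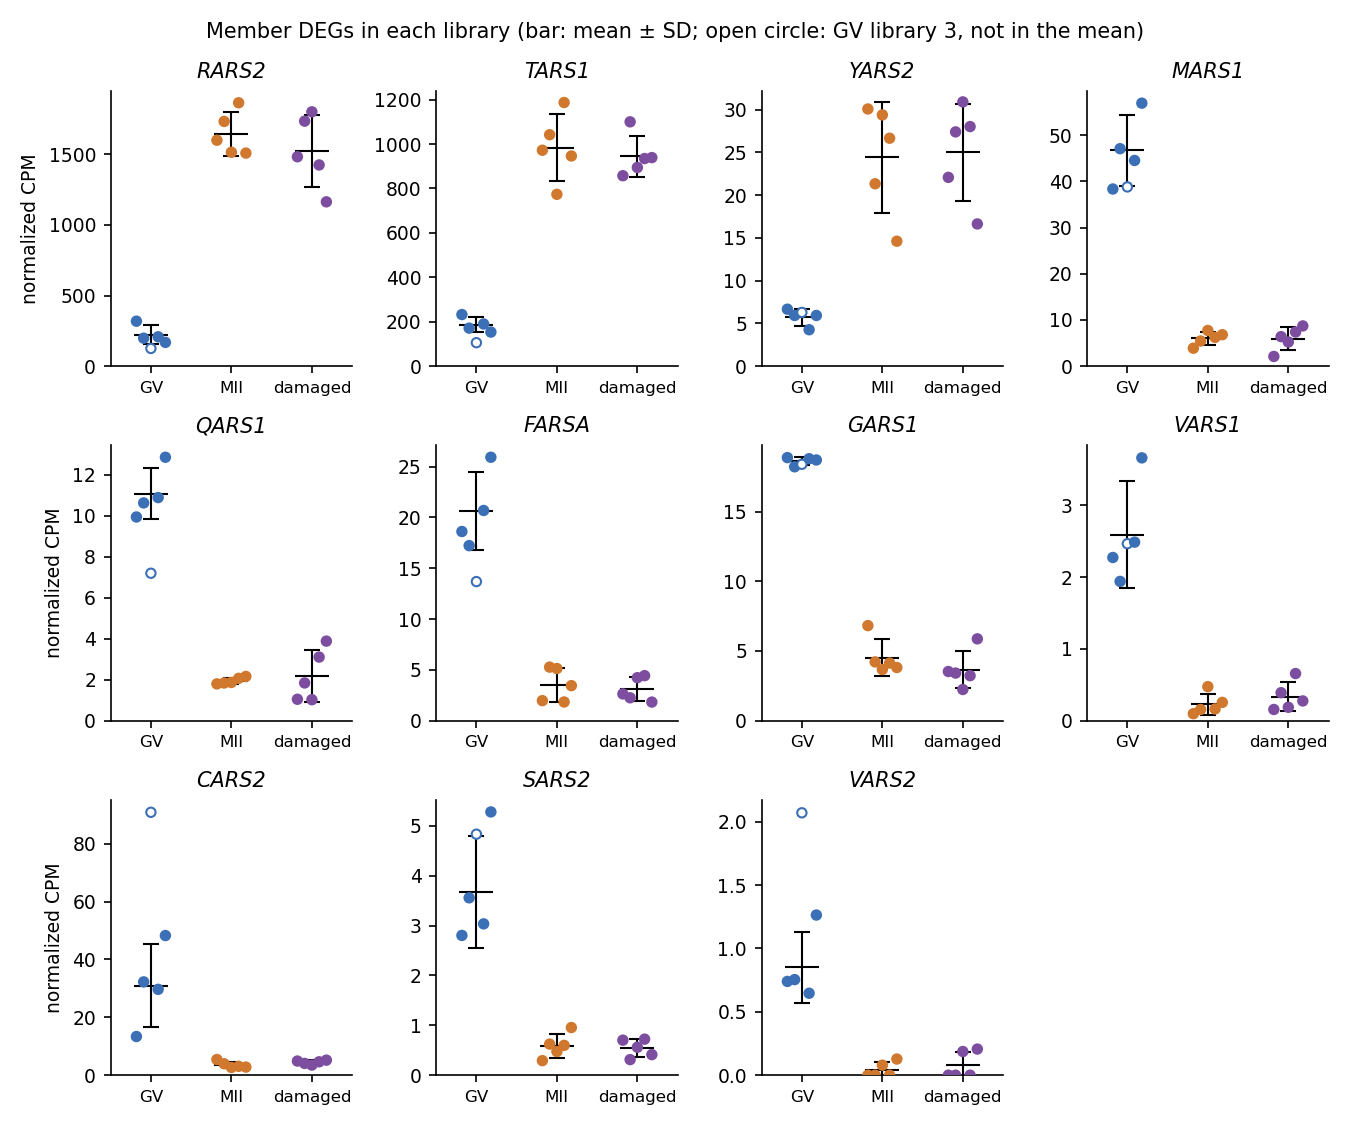
Normalized CPM of the 11 member DEGs in each library of GV, MII and 'damaged', with mean and SD as bars and GV library 3 as an open circle left out of the mean. RARS2, TARS1 and YARS2 are higher in all 10 matured libraries than in the 4 GV libraries used, and the other 8 are lower.

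TARS1, the free cytosolic threonine enzyme on chromosome 16 from 19455294 to 19486735, was the only member of its class that rose. GV libraries 1, 2, 4 and 5 held 232, 171, 190.0 and 153 normalized CPM, and GV library 3 held 106. MII libraries held 972, 1042, 774, 1187 and 946 and 'damaged' libraries 857, 1100, 894, 935 and 939. The groups did not overlap and the lowest matured library was above 3 times the highest GV library. With this, the log2 fold change came to 2.38 ± 0.12 (SE) with an FDR of 6.12e-13 (limma), and 1.48 on library sizes. In TPM it went from 133 ± 2.96 (SD, n = 4) to 343 ± 38.4 (SD, n = 10).

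Among the free enzymes, VARS1, the cytosolic valine enzyme on chromosome 7 from 23886132 to 23899265, had the lowest fitted value. In GV libraries 1, 2, 4 and 5 it stood at 2.27, 1.94, 2.49 and 3.66 normalized CPM. MII libraries held 0.0971, 0.156, 0.474, 0.163 and 0.255 and 'damaged' libraries 0.156, 0.389, 0.187, 0.656 and 0.275, from 1 to 10 estimated counts. No matured library reached the lowest GV library. The fitted log2 fold change was -3.18 ± 0.32 (SE), and as no matured library reached the cutoff of the filter its direction was fixed by the filter. VARS1 and VARS2, the pair for valine, lie 470 kb apart on chromosome 7 by RefSeq positions, and both were at a low level.

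FARSA, 1 subunit of the cytosolic phenylalanine enzyme (chromosome 2 from 66105393 to 66114867), held 18.6, 17.2, 20.7 and 25.9 normalized CPM in GV libraries 1, 2, 4 and 5. MII libraries held 1.97, 5.27, 5.13, 1.84 and 3.45 and 'damaged' libraries 2.63, 2.25, 4.23, 4.43 and 1.83. The matured groups overlapped each other and lay below GV. In the fit the log2 fold change was -2.73 ± 0.23 (SE) with an FDR of 7.79e-10 (limma).

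GARS1, the glycine enzyme of both cytosol and mitochondrion on chromosome 18 from 42311711 to 42352201, had close levels in all GV libraries. Its level in GV libraries 1, 2, 4 and 5 was 18.9, 18.2, 18.8 and 18.7 normalized CPM, and GV library 3 held 18.4. MII libraries held 6.82, 4.22, 3.67, 4.13 and 3.81 and 'damaged' libraries 3.53, 3.41, 2.24, 3.23 and 5.87. All lay below the GV libraries. Against GV the log2 fold change was -2.25 ± 0.18 (SE) with an FDR of 3.62e-10 (limma). KARS1, the lysine enzyme, also serves both compartments and is described with the complex.

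The other free enzymes that fell were SARS1 (serine, log2 fold change -1.53), HARS1 (histidine, -1.46), AARS1 (alanine, -1.19) and YARS1 (tyrosine, -0.51). CARS1 (cysteine) had a fitted value of -1.98 and passed the filter only with the GV libraries. YARS1 did not pass without GV library 1 (-0.34, FDR 0.0178) or with all 5 GV libraries (FDR 0.208). Its value on library sizes was -1.42 (FDR 2.2e-09, limma), beside a median of -1.06 for all genes. NARS1 (asparagine, -0.35) and WARS1 (tryptophan, -0.31) did not pass the test, and their groups overlapped; NARS1 passed without MII library 3 (-0.39, FDR 0.00637) and with a filter of 10 CPM (-0.67). HARS1 and HARS2 are close relatives, so reads shared between their transcripts are split by estimate and their separate levels are less certain.

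Within the multisynthetase complex, MARS1, the methionine enzyme on chromosome 5 from 22752405 to 22785509, fell the most. GV libraries 1, 2, 4 and 5 held 38.4, 47.1, 44.5 and 57.0 normalized CPM. MII libraries held 3.88, 5.45, 7.73, 6.24 and 6.82 and 'damaged' libraries 2.11, 6.39, 5.23, 7.40 and 8.72. The matured libraries did not reach the GV range. The log2 fold change was -3.02 ± 0.22 (SE) with an FDR of 6.77e-11 (limma).

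QARS1, the glutamine enzyme on chromosome 13 from 31715686 to 31723200, followed with 9.94, 10.6, 10.9 and 12.9 normalized CPM in GV libraries 1, 2, 4 and 5. MII libraries held 1.80, 1.84, 1.87, 2.07 and 2.16 and 'damaged' libraries 1.04, 1.84, 1.02, 3.10 and 3.88. The 'damaged' libraries spread more than the MII libraries, and both groups stayed below GV. With this, the log2 fold change came to -2.50 ± 0.22 (SE) with an FDR of 2.15e-09 (limma).

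IARS1, the isoleucine enzyme on chromosome 3 from 41945846 to 42022610, had the largest rise in the complex. In GV libraries 1, 2, 4 and 5 it stood at 7.13, 6.29, 8.64 and 6.12 normalized CPM. MII libraries held 17.1, 25.0, 19.0, 25.8 and 14.4 and 'damaged' libraries 15.5, 21.9, 21.8, 23.3 and 20.4, all above GV. This gave a log2 fold change of 1.53 ± 0.18 (SE) with an FDR of 1.10e-07 (limma), and 0.63 on library sizes (FDR 0.00277). KARS1 rose by nearly the same, with a log2 fold change of 1.52 and of 0.62 on library sizes (FDR 9.96e-06).

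EPRS1, a fused enzyme for glutamate and proline on chromosome 10 from 9579301 to 9648416, had the highest mean TPM among the synthetases of the complex. Its level in GV libraries 1, 2, 4 and 5 was 633, 428, 476 and 375 normalized CPM. MII libraries held 1016, 789, 933, 916 and 780.0 and 'damaged' libraries 869, 952, 949, 873 and 754. The groups did not overlap on this scale, and the log2 fold change was 0.91 ± 0.12 (SE) with an FDR of 9.02e-07 (limma). On library sizes the change was 0.01 (FDR 0.928), and in TPM the level was 227 ± 15.6 (SD, n = 4) in GV and 210 ± 21.0 (SD, n = 10) in MIX. The rise of EPRS1 is seen with TMM factors and with the size factors of DESeq2 (0.93), and not on library sizes. LARS1 (leucine) likewise stood at 0.71 with TMM factors and -0.19 on library sizes (FDR 0.200). RARS1 (arginine) fell by 0.50 on the log2 scale with an FDR of 0.00816 (limma). This call was lost in 11 of the 14 fits that leave out 1 library. Among those it was weakest without GV library 1 (log2 fold change -0.29, FDR 0.0819). It was also lost with all 5 GV libraries (-0.25, FDR 0.276), without a filter (FDR 0.0183) and on summed estimated counts (FDR 0.0128). RARS1 stood at -1.40 on library sizes (FDR 1.065e-08, limma), where the median of all genes was -1.06. Its TPM was 156 to 254 in the 4 GV libraries and 56.9 to 88.4 in MIX, without overlap.

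All 3 scaffolds of the complex had log2 fold changes below 0, and with TMM factors only AIMP2 passed the test. On library sizes all 3 fell (AIMP2 -2.47, AIMP1 -1.20, EEF1E1 -1.16). A difference between them was not tested. AIMP2 (chromosome 3 from 5109617 to 5117919) fell, from 41.2, 33.8, 34.7 and 44.5 normalized CPM in GV libraries 1, 2, 4 and 5. MII libraries held 10.6, 14.5, 10.1, 12 and 18.9 and 'damaged' libraries 10.2, 10.4, 12.5, 17.3 and 14.1, below GV throughout. In the fit the log2 fold change was -1.58 ± 0.16 (SE) with an FDR of 1.01e-08 (limma). AIMP1, the scaffold with the highest TPM, held 178, 102, 93.2 and 73.5 normalized CPM in the 4 GV libraries, 77.7 to 98.4 in MII and 76.7 to 101 in 'damaged', and did not pass the test (log2 fold change -0.30, FDR 0.102), though it did on summed estimated counts (-0.43) and with a filter of 10 CPM (-0.62). EEF1E1 did not pass either (-0.26, FDR 0.253).

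By TPM, the members that stood highest in GV were RARS2 (285), EPRS1 (227), RARS1 (213), AIMP1 (202), TARS1 (133) and KARS1 (123). In MIX the order was RARS2 (1015), TARS1 (343), EPRS1 (210), KARS1 (174), AIMP1 (79.5) and RARS1 (73.5). In GV the ranges of EPRS1 (216 to 250), RARS1 (156 to 254) and AIMP1 (164 to 272) overlapped, so their order is not resolved, and AIMP1 also reached into the range of RARS2 (263 to 340). TARS1 (130 to 137) and KARS1 (109 to 131) overlapped too. In MIX the range of RARS2 (874 to 1181) lay apart from TARS1 (285 to 404), and TARS1 lay apart from EPRS1 (176 to 240), while EPRS1 overlapped with KARS1 (151 to 195) and AIMP1 (68.4 to 89.7) with RARS1 (56.9 to 88.4). The lowest in both stages were AARS2, VARS2, VARS1 and CARS1.

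The ratio of the cytosolic to the mitochondrial enzyme for the same amino acid was taken within each library, where scaling between libraries drops out. Of 16 pairs, alanine and valine had libraries at 0 and gave no ratio. Of the remaining 14 pairs, the ratio was lower in every matured library than in the 4 GV libraries for 5, higher for 2, and overlapped for 7. These ratios are a description, with no test.

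The arginine pair shifted the most. The log2 ratio of RARS1 to RARS2 had a median of -0.41 in GV (range -0.75 to -0.18) and -3.76 in MIX (-4.37 to -3.31), so the mitochondrial message stood 1.33 times as high as the cytosolic one in GV and 13.6 times as high in MIX. For tyrosine the median log2 ratio went from 2.40 to -0.34, with a MIX range of -0.78 to 0.55, so its sign differed among the matured libraries. For histidine it went from 3.28 to 1.48, for phenylalanine (FARSA alone over FARS2) from 2.04 to 0.42, and for methionine from 3.15 to 1.55. The median was higher in MIX for threonine, 7.37 beside 5.48 in GV, and for leucine, 5.43 beside 3.98. Taken on estimated counts in place of TPM, the phenylalanine pair overlapped and the tryptophan pair (WARS1 over WARS2) was lower in MIX without overlap. GV library 3 lay outside the range of the other GV libraries for some pairs: it held 0.82 for tyrosine, below their 1.95 to 2.81, and 5.09 for histidine, above their 2.61 to 3.89. Within the pairs that shifted in TPM, MII and 'damaged' covered overlapping ranges, such as -4.02 to -3.71 and -4.37 to -3.31 for arginine. For methionine these ranges barely met, at 1.5492 to 2.23 in MII and 0.53 to 1.5502 in 'damaged'. Estimated counts gave no overlap between MII and 'damaged' for methionine (2.453 to 3.13 and 1.43 to 2.451). The same held for phenylalanine (1.78 to 2.38 and 1.13 to 1.76). These differences were not tested.

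**Figure D4:**
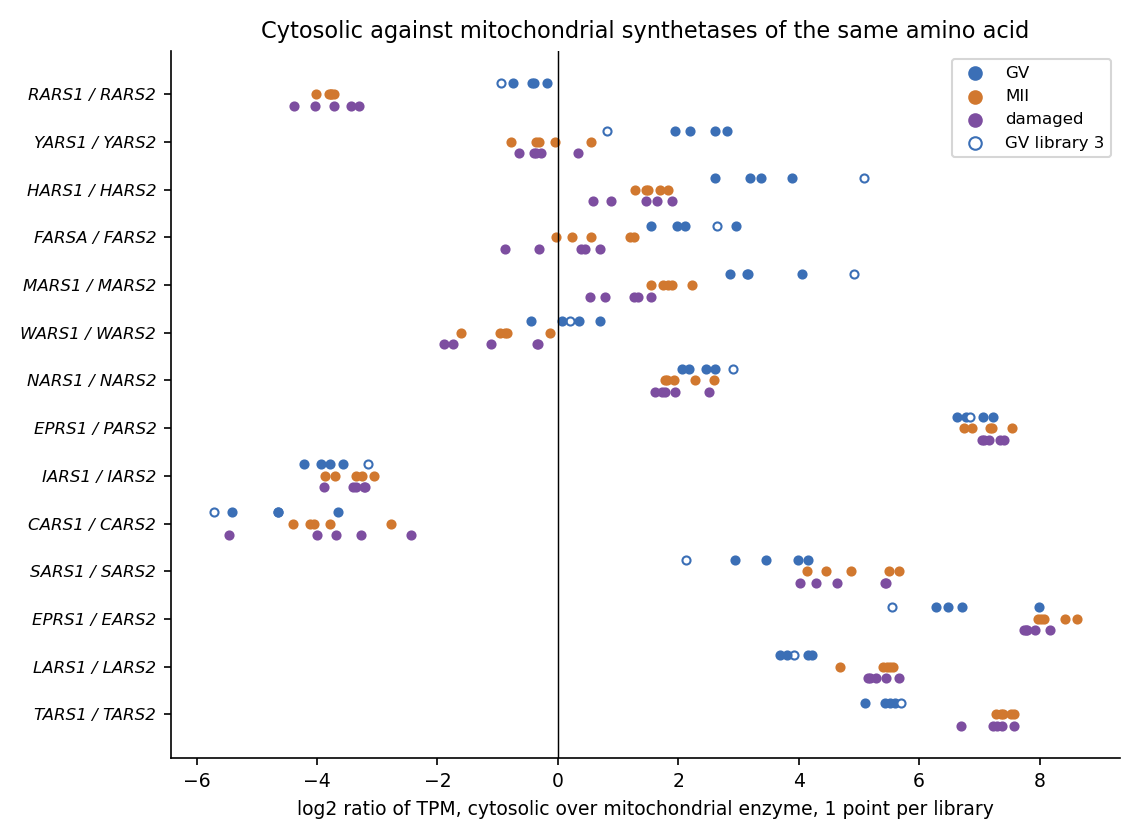
Log2 ratio of TPM of the cytosolic to the mitochondrial synthetase in each library for 14 amino acid pairs, ordered by the change from GV to MIX; GV library 3 is an open circle. The arginine pair moves from a median of -0.41 to -3.76 and the threonine pair from 5.48 to 7.37.

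Below the level of the gene, the reads are spread over annotated transcripts. The share of each isoform in the TPM of its gene was compared for the 25 members with at least 2 transcripts and a mean TPM of at least 1 in both GV and MIX. The share of the isoform leading in GV was lower in every MIX library than in every GV library for 6 members (24%, beside 22.4% of 5471 genes) and higher for 3 (12%, beside 8.77%). These shares are near those of all genes, so the shifts are not particular to the synthetases. The isoforms below were chosen after their values were seen.

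WARS1 and NARS1, the free enzymes whose gene level did not pass the test, both had shares that did not overlap between GV and MIX. The 2707 b isoform of WARS1 held 65.8 to 82.0% of its TPM in GV, and 8.03 to 16.7% in MII and 7.46 to 16.4% in 'damaged', where an 1826 b isoform led. For NARS1 the 2659 b isoform held 64.1 to 74.8% in GV, at most 18.8% in MII and at most 11.6% in 'damaged', and the 3099 b isoform then held 81.2 to 100%. The 4685 b isoform of EPRS1 went from 77.1 to 85.1% in GV to 0.855 to 43.8% in MIX, where the 4908 b isoform held 56.1 to 99.1%.

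For TARS1 the 2325 b isoform held 35.0 to 62.3% in GV and 73.1 to 79.8% in MIX, and the 6017 b isoform 33.7 to 52.2% and 16.6 to 20.03%. A 6217 b isoform of LARS1 held 30.0 to 36.7% in GV and at most 1.76% in MIX, and the 2254 b isoform of FARSA held 42.2 to 51.7% and at most 0.222%. The leading 1887 b isoform of RARS2 overlapped between the stages, at 54.3 to 62.9% in GV and 53.3 to 61.1% in MIX. GV library 3 held 100% of WARS1 in the 2707 b isoform, yet only 1.95% of LARS1 in the 6217 b isoform and 4.14% of TARS1 in the 2325 b isoform. Isoform shares come from reads split by estimate among overlapping transcripts, and their counting error was not modelled.

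**Figure D5:**
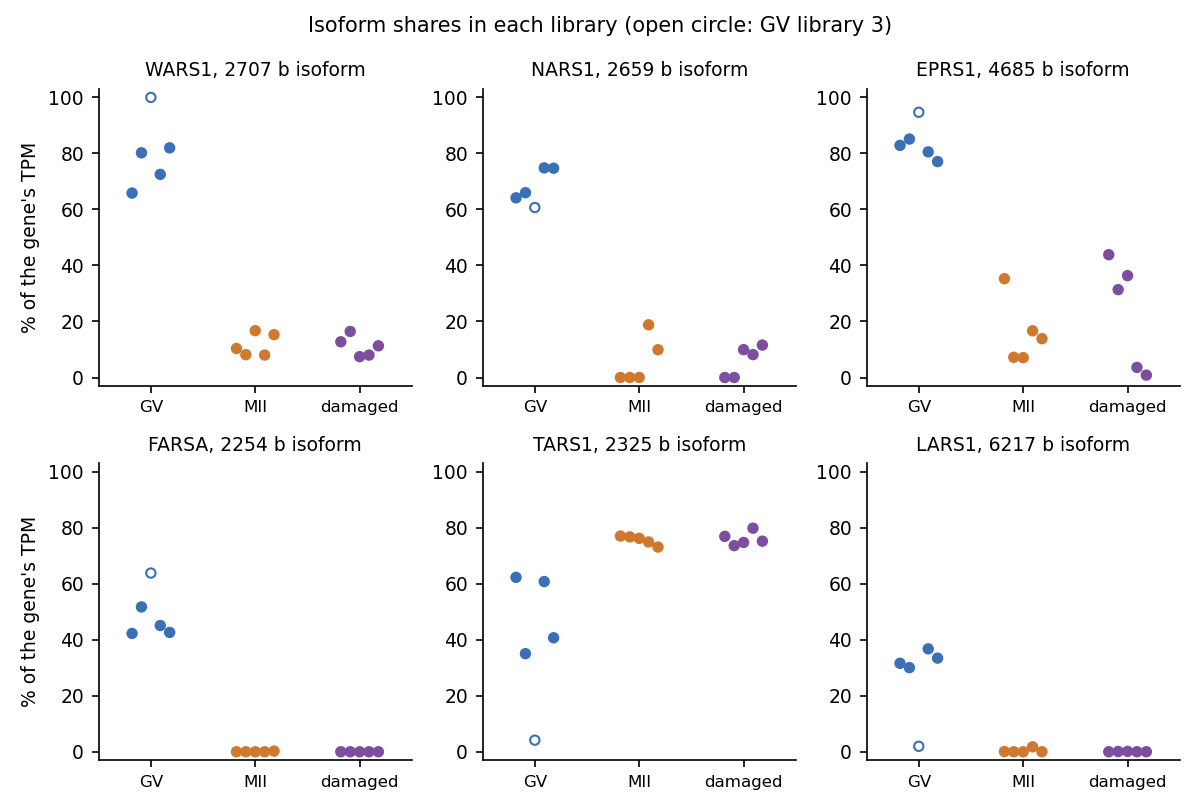
Share of 1 isoform in the TPM of its gene in each library of GV, MII and 'damaged', for 6 members chosen after their values were seen; GV library 3 is an open circle. The WARS1, NARS1, EPRS1, FARSA and LARS1 isoforms are lower in all 10 matured libraries than in the 4 GV libraries used, and the TARS1 isoform is higher.

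Of the 28 partner genes listed, 25 were tested. Of these, 8 rose (32%, beside 30.3% of all genes tested) and 11 fell (44%, beside 37.2%). These shares are near those of all genes. GATB, EEF1A1 and EEF1G were not found by symbol and were not analysed here. Among 7 genes of mitochondrial charging and delivery, 4 rose (57.1%) and 1 fell (14.3%). QRSL1 and GATC, subunits of the enzyme that makes glutaminyl-tRNA in mitochondria, had log2 fold changes of 1.20 and 0.62. MTFMT, which formylates the initiator methionyl-tRNA, was at 0.78 and TRNT1, which adds the CCA end of tRNAs, at 0.51. TUFM, the mitochondrial elongation factor that carries charged tRNA to the ribosome, fell (-2.49). On library sizes 0 of these 7 genes rose and 4 fell: TUFM (-3.38), TSFM (-0.87), GFM1 (-0.66) and TRNT1 (-0.39). GATC and MTFMT turned to -0.28 and -0.12 there, and these and QRSL1 (0.29) did not pass.

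In the cytosol, EEF1B2 and EEF1D, exchange factors of elongation factor 1, both fell (-1.96 and -3.78). Of 4 editing and related genes, AARSD1, a hydrolase for mischarged alanine tRNA, fell (-2.11) and DTD1, a D-aminoacyl-tRNA deacylase, fell (-0.89). Of 4 selenocysteine genes, SEPSECS (1.01) and SECISBP2 (1.54) rose, and PSTK (-0.54) and EEFSEC (-1.81) fell. Among 8 genes of the response to uncharged tRNA, EIF2AK4, the kinase GCN2 that senses it, rose (1.90), as did DDIT3 (1.15). On library sizes SEPSECS (0.12) and DDIT3 (0.24) did not pass. ATF4 (-0.77), ASNS (-2.18) and CHAC1 (-1.77) fell. SESN2, counted among the partner genes that fell, had a fitted value of -3.49. It passed the filter only through GV, so it had to be lower in MIX.

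MII and 'damaged' were each compared with GV in 1 fit of 3 groups, and the 2 comparisons share the GV libraries. In MII versus GV, 25 members changed (background 62.4% of all genes): 10 rose (background 28.2%) and 15 fell (background 34.2%), with 3 DEGs that rose (background 4.51%) and 9 that fell (background 17.0%). In 'damaged' versus GV, 24 changed (background 61.4%): 9 rose (background 28.0%) and 15 fell (background 33.4%), with 3 DEGs that rose (background 4.08%) and 8 that fell (background 16.4%). The falls in both comparisons include VARS1, VARS2, SARS2 and CARS1, whose direction the filter fixed. All of these are among the DEGs that fell in MII, and all but CARS1 among those in 'damaged'. FARS2, MARS2 and PARS2 passed in MII alone, and LARS2 and YARS1 in 'damaged' alone, which does not show that the groups differ. For RARS2 the log2 fold change was 2.92 ± 0.17 (SE) in MII and 2.80 ± 0.17 (SE) in 'damaged', and for TARS1 2.40 ± 0.14 (SE) and 2.35 ± 0.14 (SE).

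Between MII and 'damaged' no member changed, by limma (0 of 36, background 0.00%), edgeR or DESeq2, and no member had an unadjusted p under 0.05 by limma (background 2.78%). The smallest p was that of HARS1, the histidine enzyme, at 0.0527 (limma, unadjusted, FDR 1.00). MII libraries held 7.25, 6.59, 10.6, 7.43 and 7.61 normalized CPM and 'damaged' libraries 4.34, 6.65, 4.41, 8.12 and 7.45, so the groups overlapped. The log2 difference, MII minus 'damaged', was 0.37 (95% interval -0.0048 to 0.75). For 31 of the 36 members the 95% interval lay within 1 log2 unit of 0, and for VARS2, CARS1, CARS2, MARS2 and VARS1 it reached further, down to -1.47. A difference of up to those bounds is not excluded.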

How the data were processed

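The authors trimmed single-end reads with AfterQC and quantified them with Kallisto 0.43 on the Ensembl Sscrofa11.1 transcripts, and deposited estimated counts and TPM per transcript for each library. They also deposited a table of counts per gene, of which 7 columns had totals that belong to another library than the one named and were not used. Transcripts were placed in genes by matching their counts to the 8 remaining columns, and gene counts on the length-scaled TPM scale were made for all 15 libraries. Genes passed edgeR 4.0.16 filterByExpr (minimum count 10) and were fitted with limma 3.58.1 voom in R 4.3.3 with TMM factors, without GV library 3, taken to be the GV library that the study left out for few reads. Members and lists were chosen with earlier results of these data known. Full values are given for member DEGs, for the largest rise, largest fall and highest mean TPM of each class, and for the smallest p between MII and 'damaged'. Alternatives were library sizes without TMM factors, edgeR quasi-likelihood, DESeq2 1.42.0, no filter and a filter of 10 CPM, summed estimated counts, all 5 GV libraries, a replicate block and leaving out each library. Estimated counts were rounded for edgeR and DESeq2. The coordinates printed come from the RefSeq gene table (Sscrofa11.1). Isoform shares and their alternatives were added after the data were seen.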

Additional observations from a re-analysis of the deposited data

Results flagged for a closer look

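In 6 of 111 groups of libraries (a member in GV, MII or 'damaged'), 1 library stood apart from the others of its group by Dixon's test, which chance alone gives in about 1 group in 20. GARS1 held 6.82 normalized CPM in MII library 1 beside 3.67 to 4.22 in the others. HARS1 held 10.6 in MII library 3 beside 6.59 to 7.61, and LARS1 held 246 in the same library beside 159 to 177. LARS1 was low in 'damaged' library 1, with 139 beside 173 to 183. AARS2 held 0.0543 in MII library 4 and 0 in the other MII libraries. EARS2 held 1.74 in GV library 1 beside 3.18 to 3.36.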

How the results depend on the processing

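On library sizes without TMM factors, 5 members rose (3 cytosolic and 2 mitochondrial synthetases) beside 12.1% of all genes, 0 were DEGs that rose and 14 were DEGs that fell (38.9%, beside 28.6%), and the direction turned for PARS2 (-0.22), HARS2 (-0.52), LARS1 (-0.19), TARS2 (-0.43) and WARS2 (-0.0435). With a filter of 10 CPM, which tests fewer genes, 5 member DEGs and 1 mitochondrial synthetase fell, and with all 5 GV libraries 3 mitochondrial synthetases fell. NARS2, near 0, turned to 0.0315 by DESeq2, 0.0282 without a filter and 0.11 with all 5 GV libraries, and EEF1E1 to 0.0099 with all 5. The cause was not tested. The number of members changed between MIX and GV was 28 by edgeR, by DESeq2 and without a filter, 22 with a filter of 10 CPM, 23 with all 5 GV libraries and 29 on summed estimated counts.

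Leaving out 1 library gave 25 to 28 members changed between MIX and GV, 24 to 26 between MII and GV, 22 to 25 between 'damaged' and GV and 0 between MII and 'damaged'. NARS2 ranged from -0.0827 to 0.0656 and EEF1E1 from -0.49 to 0.0134. Pairs of enzymes whose ratios did not overlap numbered 7 to 10, and leading isoforms 8 to 10. Replicate numbers were not taken as pairs: deviations of same-numbered libraries correlated from -0.11 to 0.36, over 0.1 in 5 of 13 pairs, with a median of 0.07, beside 3 of 52 and -0.02 for other numbers. With a replicate block 29 members changed between MIX and GV, NARS1 being added (-0.40, FDR 0.00783 by limma). Depth limits VARS1, VARS2 and AARS2, which had few or no counts in MIX.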

Other observations

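By RefSeq positions on Sscrofa11.1, 4 pairs lie within 2 Mb of each other among the 37 listed members that the RefSeq table gave a position. HARS2 had none and was not searched. EPRS1 and IARS2 are 37.2 kb apart on chromosome 10 and both rose between GV and MIX with TMM factors (log2 fold changes 0.91 and 1.08), though on library sizes they stood at 0.01 and 0.19. AARS1 and KARS1 on chromosome 6 are 1225 kb apart, and one fell (-1.19) while the other rose (1.52). FARS2 and EEF1E1 on chromosome 7 are 1811 kb apart, with log2 fold changes of -0.89 and -0.26, the latter not past the test.

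ASNS, the asparagine synthetase that is a usual target of ATF4, had the highest level among the genes of the response to uncharged tRNA that fell. It held 1139 to 1356 normalized CPM in the 4 GV libraries and 204 to 308 in MIX, without overlap.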
